A study of Mus musculus with 2 samples.

Results

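The ankyrin and spectrin genes of the axonal membrane skeleton were followed in the forebrain of newborn mice. The 7 genes are the ankyrins Ank1, Ank2 and Ank3, the alpha-spectrin Sptan1 and the beta-spectrins Sptb, Sptbn1 and Sptbn4. They were found by matching gene identifiers to these symbols, and all 7 were present among the 43346 genes of the deposited tables, with 127 of the 129984 transcripts. Total RNA longer than 200 nt was sequenced from 10 ng per library, 1 forebrain per library, at postnatal day 0 in the inbred strain B6NCrl. The 2 libraries form 1 group: pup 1 is replicate 1 and pup 3 is replicate 2. No treatment, mutation or second tissue is part of the design, the sex of the pups is not recorded, and both libraries carry 1 donor identifier although each is described as a pup of its own. Expected counts, the estimated reads per gene, summed to 40066386 in pup 1 and 40431595 in pup 3.

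Spectrins are long, flexible rods built from alpha and beta chains, which join short actin filaments into a network under the plasma membrane. In axons this network repeats at regular intervals along the shaft. Ankyrins are adaptors that tie the beta chain to membrane proteins through a domain of ankyrin repeats. Ankyrin-G, made from Ank3, organises the axon initial segment and the nodes of Ranvier together with beta-IV spectrin from Sptbn4, while ankyrin-B from Ank2 and beta-II spectrin from Sptbn1 line the rest of the axon. Sptan1 encodes alpha-II spectrin, the alpha chain of neurons. Ank1 and Sptb are best known from red blood cells and striated muscle, where Ank1 also makes a small form of its own.

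Several sequences carry the results on splicing and start sites and are given here, 5′ to 3′. The alternative exon of Sptan1 and the giant exon of Ank3 are shown from GENCODE M21 transcripts (build GRCm38, the same assembly as mm10), plus strand, with bases of the exon in capitals. The Sptan1 exon lies at chr2:30001100-30001159 and is shown whole with 20 bases of the neighbouring exons on each side, because full-length transcripts with and without it were compared. It encodes the insert that follows the SH3 domain of alpha-II spectrin. The giant exon of Ank3 lies at chr10:69986089-69993762, and its first 60 bases are shown after 30 bases of the exon before it.
Sptan1 alternative exon: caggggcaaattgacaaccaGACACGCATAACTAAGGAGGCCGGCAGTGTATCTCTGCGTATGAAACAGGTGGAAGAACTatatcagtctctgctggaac
Ank3 giant exon junction: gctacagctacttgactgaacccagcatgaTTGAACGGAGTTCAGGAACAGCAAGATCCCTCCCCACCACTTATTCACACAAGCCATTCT

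Annotated start sites were compared in Sptbn4 and Sptbn1, for which RefSeq windows (GRCm38.p6, from 250 bases before to 50 bases after an annotated start, minus strand) are shown. The first Sptbn4 window, chr7:27446540-27446839, belongs to Sptbn4-201, the full-length transcript. The second, chr7:27396504-27396803, belongs to the internal start of Sptbn4-203. The Sptbn1 window, chr11:30219723-30220022, belongs to Sptbn1-202, whose annotated start lies inside the gene. Sptbn1-202 has 35 exons and 8238 nt, against 36 exons and 8461 nt for Sptbn1-201 from the first start, with the same coding length. The printed bases just before the annotated start of Sptbn1-202 read like the end of an intron, rich in T and C and ending in AG. Whether transcription begins there was not tested. Capitals mark GGGCGG, the core of the GC box, searched on both strands.
Sptbn4 first start: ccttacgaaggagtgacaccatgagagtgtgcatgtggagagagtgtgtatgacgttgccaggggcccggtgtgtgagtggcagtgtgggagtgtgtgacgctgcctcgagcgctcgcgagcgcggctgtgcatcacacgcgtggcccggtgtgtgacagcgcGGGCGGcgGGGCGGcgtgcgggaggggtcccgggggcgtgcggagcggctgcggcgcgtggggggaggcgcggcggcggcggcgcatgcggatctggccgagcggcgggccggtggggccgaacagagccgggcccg
Sptbn4 internal start: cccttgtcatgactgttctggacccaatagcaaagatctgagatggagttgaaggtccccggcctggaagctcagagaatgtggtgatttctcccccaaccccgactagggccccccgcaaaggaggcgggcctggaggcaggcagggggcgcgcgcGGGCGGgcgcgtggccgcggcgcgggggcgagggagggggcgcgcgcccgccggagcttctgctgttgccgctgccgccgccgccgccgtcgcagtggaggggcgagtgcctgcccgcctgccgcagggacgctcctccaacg
Sptbn1 start of Sptbn1-202: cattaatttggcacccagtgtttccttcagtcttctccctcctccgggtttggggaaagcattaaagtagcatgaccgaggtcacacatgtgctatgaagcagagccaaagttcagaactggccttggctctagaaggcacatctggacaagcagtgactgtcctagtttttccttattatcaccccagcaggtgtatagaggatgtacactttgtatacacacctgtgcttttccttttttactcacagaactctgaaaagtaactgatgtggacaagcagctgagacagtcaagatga

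Both printed Sptbn4 windows were rich in G and C, at 73.7% for the first start and 72.0% for the internal start, with 41 and 33 CpG dinucleotides. The Sptbn1-202 window had 45.3% and 2 CpG. The median of all 32851 mouse windows was 52.7% with 7 CpG. GGGCGG occurred 2 times in the first Sptbn4 window, once in the printed internal one and not in that of Sptbn1-202, and 35.7% of all windows hold it. None of these 3 windows held TATAAA, which 13.6% of all windows hold. CCAAT was present in the printed internal Sptbn4 window, beside 37.4% of all windows. RefSeq windows were found for 5 of the 7 genes, 12 in all. The single window of Sptan1 had 73.3% G and C with 37 CpG, and that of Sptb 65.7% with 21 CpG. The 4 windows of Ank2 ranged from 45.0% to 62.7%. Further internal windows of Sptbn4, not printed, had 70.3% with 24 CpG (Sptbn4-204) and 49.0% with 1 CpG (Sptbn4-202). The Sptbn1-203 window had 57.0% with 21 CpG, and no window lay at the first Sptbn1 start.

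Levels are given as TPM, the number of transcripts of a gene relative to all others in its library, which are scaled for transcript length and so allow genes to be compared. Alpha-II spectrin, beta-II spectrin, ankyrin-B and ankyrin-G transcripts were abundant in newborn forebrain, while beta-IV spectrin, beta-I spectrin and ankyrin-1 transcripts were scarce. Values stand beside 13030 protein-coding genes with at least 1 TPM in both pups, 60.7% of all protein-coding genes measured, whose median level was 17.0 TPM. In bulk tissue, fewer cells of a type and less RNA per cell cannot be told apart. With 2 pups, the smallest p of an exact two-sided sign-flip test is 0.5, so no p is given, and differences were called larger than the spread between pups only where the mean log2 ratio exceeded 3 SD with the same sign in both.

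Among the ankyrins, Ank2 (ENSMUSG00000032826, chr3:126921612-127499350, mm10, minus strand) had 75.95 TPM in pup 1 and 32.2 TPM in pup 3, from 13021 and 6041 expected counts. The pups stood far apart for this gene, and its mean of 54.1 ± 30.9 TPM (SD, n = 2) was at percentile 77.2 of the detected protein-coding genes. Ank3 (ENSMUSG00000069601, chr10:69398773-70027438, plus strand) had 48.5 TPM in pup 1 and 27.4 TPM in pup 3, a mean of 37.9 ± 14.9 TPM (SD, n = 2) at percentile 69.8. Ank1 (ENSMUSG00000031543, chr8:22974844-23150497, plus strand) had 1.12 TPM in pup 1 and 0.5 TPM in pup 3, from 153 and 112 expected counts. It was the only one of the 7 with a mean below 1 TPM, 0.810 ± 0.438 (SD, n = 2). In neither pup did its deposited interval, 1.14 to 2.46 TPM in pup 1 and 0.629 to 1.47 TPM in pup 3, contain its own TPM. The posterior mean TPM, a second deposited estimate, was 1.75 in pup 1 and 1.01 in pup 3, above 1 TPM in both. It also gives levels to transcripts with 0 expected counts, such as 0.15 TPM each for Ank1-211 and Ank1-217 in pup 3.

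The alpha chain Sptan1 (ENSMUSG00000057738, chr2:29965560-30031451, plus strand) had 120.2 TPM in pup 1 and 111 TPM in pup 3. Its mean of 116 ± 6.29 TPM (SD, n = 2), at percentile 89.0, was the highest and the closest between pups relative to its level.

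Of the beta chains, Sptbn1 (ENSMUSG00000020315, chr11:30099395-30268175, minus strand) had 130.0 TPM in pup 1 and 89.3 TPM in pup 3, with a mean of 109.6 ± 28.8 TPM (SD, n = 2) at percentile 88.2. Sptbn4 (ENSMUSG00000011751, chr7:27356383-27447686, minus strand) had 3.25 TPM in pup 1 and 2.04 TPM in pup 3, a mean of 2.65 ± 0.856 TPM (SD, n = 2) at percentile 10.3. Sptb (ENSMUSG00000021061, chr12:76580488-76710547, minus strand) had 2.60 TPM in pup 1 and 1.87 TPM in pup 3, a mean of 2.24 ± 0.516 TPM (SD, n = 2) at percentile 7.80. Both scarce beta chains were far below Sptbn1 in each pup. Outside the 7 genes, beta-V spectrin (Sptbn5) had 0.110 TPM in pup 1 and 0.0200 TPM in pup 3.

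**Figure D1:**
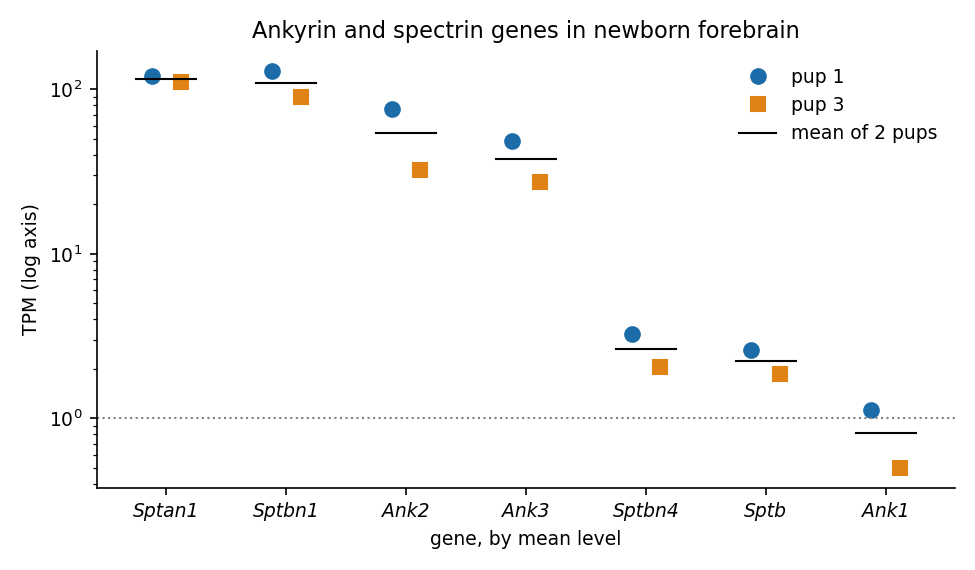
TPM of the 7 ankyrin and spectrin genes on a log axis, in order of mean level, with a circle for pup 1, a square for pup 3 and a bar for the mean of both. Sptan1, Sptbn1, Ank2 and Ank3 lie between 27.4 and 130.0 TPM, while Sptbn4, Sptb and Ank1 lie at or under 3.25 TPM, and the dotted line marks 1 TPM.

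Set in order, the genes fell into an abundant group of 4 and a scarce group of 3. No neighbours within the abundant group differed beyond the spread between pups, and in the scarce group 1 of 2 pairs did. Ank3, the lowest of the abundant group, was 14.5 times Sptbn4 in pup 1 and 12.8 times in pup 3 (mean log2 ratio 3.77 ± 0.12). Sptb was 2.21 times Ank1 in pup 1 and 3.28 times in pup 3 (mean log2 ratio 1.43 ± 0.40, or 0.76 ± 0.22 with the posterior mean TPM and 0.85 ± 0.12 with a pseudocount of 1). These 2 of the 6 neighbouring pairs passed the 3 SD criterion. Sptan1 was 0.925 times Sptbn1 in pup 1 and 1.25 times in pup 3, so their order switched between the pups. Sptbn1 was 1.71 and 2.77 times Ank2, Ank2 was 1.57 and 1.18 times Ank3, and Sptbn4 was 1.24 and 1.09 times Sptb, in pups 1 and 3, and none of these ratios passed. By expected counts not divided by length, Sptb was above Sptbn4, with a mean log2 ratio of Sptbn4 over Sptb of -0.59 ± 0.06, past 3 SD.

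Ratios between chains known to pair, and between genes of 1 family, were formed in each pup, and 6 of 10 exceeded 3 SD. The alpha chain was close in level to the 3 beta chains together: Sptan1 was 0.885 times the summed Sptb, Sptbn1 and Sptbn4 in pup 1 and 1.19 times in pup 3, a mean log2 ratio of 0.04 ± 0.31 that lay within the spread. Nearly all of that beta sum was Sptbn1, which was 38.8 and 41.8 times Sptbn4 in pups 1 and 3 (mean log2 ratio 5.33 ± 0.07) and 48.2 and 45.4 times Sptb (5.55 ± 0.06). Ank2 was 62.3 and 53.9 times Ank1 in pups 1 and 3 (5.86 ± 0.15), and Ank3 was 39.8 and 45.8 times Ank1 (5.42 ± 0.14). Both depend on the low level of Ank1: with the posterior mean TPM they were 5.15 ± 0.32 and 4.70 ± 0.04, and with a pseudocount of 1 they were 4.83 ± 0.50 and 4.39 ± 0.21, still past 3 SD.

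Transcript shares are the deposited percentages of a gene's TPM assigned to each transcript, model estimates in which overlapping transcripts divide their reads. The same transcript led in both pups in 6 of 7 genes, and 50 of the 127 transcripts were at 0 in both pups. The leading transcript was short, or not protein-coding, in several genes, so that a gene's TPM is not the level of its full-length message. Structures were taken from GENCODE M21 only where the deposited length agreed within 1%, which held for 107 of the 127 transcripts.

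In Sptbn1 the largest share lay in Sptbn1-207, a retained-intron transcript of 2956 nt at the 3′ end of the gene, with 57.1% in pup 1 and 61.3% in pup 3. The coding transcripts Sptbn1-201, from the first start, held 22.8% in pup 1 and 20.2% in pup 3, and Sptbn1-202, from the annotated start whose window is printed above, 16.7% and 16.6%. Each has 7089 coding bases. The deposited intervals of Sptbn1-201 and Sptbn1-202 overlapped, at 24.4 to 33.6 and 16.6 to 26.0 TPM in pup 1. In pup 3 they were 14.8 to 21.3 and 10.6 to 17.3 TPM. Sptbn1-203, whose 6462 coding bases encode the form with a shorter C-terminus, held 1.36% in pup 1 and 1.16% in pup 3. By expected counts, which long transcripts gather in proportion to length, Sptbn1-201 and Sptbn1-207 were nearly level at 35.9% ± 2.21 and 33.8% ± 2.52 (SD, n = 2). Gm8098, on the opposite strand at the start of the gene, had 107 expected counts in pup 1 and 101 in pup 3, few beside the 16462 and 12359 of Sptbn1.

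In Sptan1, Sptan1-208, listed at 1434 nt in the deposited tables, held 48.1% of TPM in pup 1 and 49.5% in pup 3 but 16.6% ± 1.496 of expected counts (SD, n = 2). The deposited length differs from the 7585 nt of that identifier in GENCODE M21, so its structure was not used. The full-length transcripts Sptan1-203 and Sptan1-201 held 21.9% and 14.0% in pup 1, and 19.6% and 13.5% in pup 3. Among the 5 length-matched full-length transcripts, those with the alternative exon printed above held 50.05% of TPM in pup 1 and 50.3% in pup 3, so the estimated levels of messages with and without this insert were nearly equal in both animals. A further alternative exon of 15 bases (chr2:30014158-30014172) was held by 68.0% of full-length TPM in pup 1 and 65.4% in pup 3. An alternative exon of 63 bases (chr2:30028644-30028706) belonged to a single transcript, Sptan1-205, that was at 0 in both pups.

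**Figure D2:**
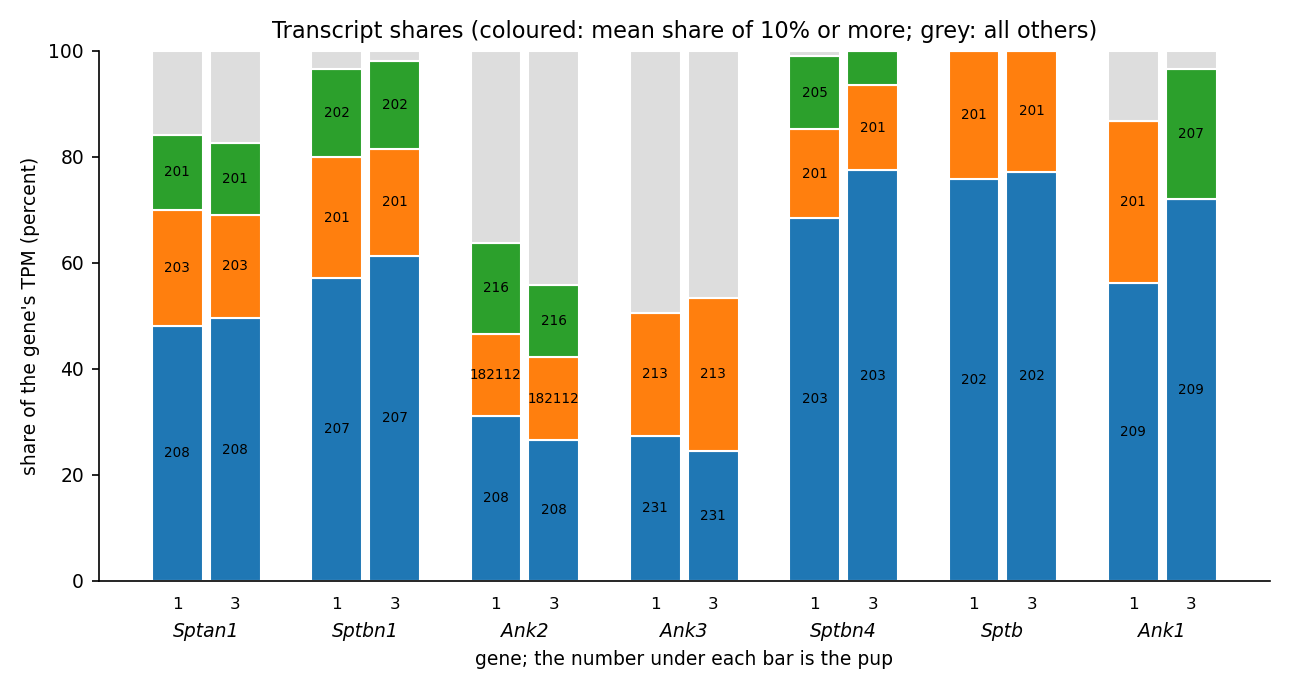
Share of each gene's TPM in its transcripts, in percent, with 1 bar for pup 1 on the left and 1 for pup 3 on the right. Numbers inside the bars are transcript numbers (207 in Sptbn1 is Sptbn1-207, and 182112 in Ank2 is ENSMUST00000182112), colours mark transcripts with a mean share of 10% or more and grey the rest. The pups agree closely in Sptb and Sptbn1, while Ank1-201 is at 30.5% in pup 1 and at 0 in pup 3.

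The beta-IV spectrin gene was represented mostly by its internal start. Sptbn4-203, with 3723 coding bases against 7683 in the full-length Sptbn4-201, held 68.4% of TPM in pup 1 and 77.4% in pup 3, whereas Sptbn4-201 held 16.8% in pup 1 and 16.1% in pup 3. A short form of beta-IV spectrin without the N-terminal actin-binding domain is known at initial segments. Sptbn4-205, a noncoding transcript of 369 nt near the first start, held 13.7% in pup 1 and 6.44% in pup 3, from 3.00 and 1.00 expected counts. With the posterior mean TPM, the internal start group held 59.2% in pup 1 and 64.9% in pup 3. The deposited interval of Sptbn4-203 did not contain its own TPM in either pup. It ran from 0.463 to 2.203 TPM beside 2.23 in pup 1, and from 0.00188 to 1.41 TPM beside 1.58 in pup 3. Sptbn4-204, another internal transcript at 0 TPM in both pups, had intervals reaching 1.40 TPM in pup 1 and 1.25 TPM in pup 3. The internal start group led by both estimates, but its share rests on 377 expected counts in pup 1 and 287 in pup 3 for the whole gene.

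Beta-I spectrin, Sptb, was made of 2 transcripts. Sptb-202, whose 6411 coding bases encode the shorter C-terminus of the red-cell type, held 75.9% of TPM in pup 1 and 77.2% in pup 3. Sptb-201, whose 6987 coding bases encode the longer C-terminus known from muscle and brain, held 24.1% in pup 1 and 22.8% in pup 3. The 2 pups differed little, at 76.5% ± 0.919 for Sptb-202 (SD, n = 2). Markers of red cells were also measured: 5 of 12 erythroid genes reached 1 TPM in both pups, beside 60.7% of all protein-coding genes. The summed level of the list was 2266 TPM in pup 1 and 3208 TPM in pup 3, nearly all of it globin. The blood-group gene Rhag was at 0 in both pups. The red-cell membrane gene Slc4a1, at 0.580 TPM in pup 1 and 0.370 TPM in pup 3, was below Sptb. Of 6 skeletal muscle markers, 3 reached 1 TPM in both pups, beside the same 60.7%. Their list had a summed level of 23.0 TPM in pup 1 and 17.6 TPM in pup 3, mostly Acta1. The part of these cells in the levels of Sptb and Ank1 was not tested.

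Ank1 was too scarce for its transcript shares to be settled. Ank1-209, a full-length transcript of 8218 nt, led with 56.2% of TPM in pup 1 and 72.1% in pup 3. Ank1-201, a transcript of 1030 nt from the most downstream start that makes the small muscle-type ankyrin, held 30.5% in pup 1 and 0% in pup 3, from 7.90 and 0 expected counts. Ank1-207 held 0% in pup 1 and 24.5% in pup 3. With the posterior mean TPM, the distal start group held 49.7% in pup 1 and 42.0% in pup 3, and the first start group 26.0% and 30%, against 59.8% and 72.0% by TPM. In pup 3, every transcript of the distal start group had 0 expected counts. Depth limits these shares. An antisense gene at the 3′ end, Gm15816, had 16.1 expected counts in pup 1 and 17.4 in pup 3, strand use is not stated, and its part in the shares was not tested.

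Ank3 was spread over 44 transcripts. Ank3-231, a coding transcript of 9963 nt, held 27.4% in pup 1 and 24.6% in pup 3, while Ank3-213, of 2451 nt, held 23.2% in pup 1 and 28.7% in pup 3, so the leading transcript switched between the pups. By expected counts Ank3-231 stood clear at 53.5% ± 2.47 against 12.8% ± 2.30 for Ank3-213 (SD, n = 2). The giant exon, whose first bases are printed above, has 7674 coding bases and encodes the long insert of the giant ankyrin-G forms that build the initial segment. The single matched transcript that holds it whole, Ank3-244, is a fragment of 8612 nt that is coding throughout. It held 10.1% of Ank3 TPM in pup 1 and 9.82% in pup 3, a mean of 9.98% ± 0.218 (SD, n = 2), and 17.8% of expected counts. The share of Ank3-244 was thus almost the same in both pups although the level of the gene was not. Ank3-236, Ank3-225 and Ank3-243 start within the span of the giant exon and were not counted. Their mean shares were 9.40%, 5.39% and 3.06%, so the share of Ank3 with any giant-exon sequence was not measured.

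Ank2 also has an annotated giant exon (chr3:126941610-126947807, 6198 bases), which encodes the insert of the giant axonal ankyrin-B. The transcripts that hold it in GENCODE M21, Ank2-207 and Ank2-208, have other lengths in the deposited tables, 5208 nt against 14305 nt for Ank2-208, so no share was assigned to this exon. Ank2-208 held 31.1% of Ank2 TPM in pup 1 and 26.6% in pup 3, ENSMUST00000182112, of 13865 nt, 15.5% and 15.6%, and Ank2-216 17.1% and 13.6%. Ank2-216, listed at 8095 nt, is a retained-intron transcript of 2359 nt in GENCODE M21, so its structure was not used. Length-matched transcripts held a mean of 25.8% of Ank2 TPM. The 6 transcripts of 10000 nt or more together held 25.4% of TPM in pup 1 and 26.9% in pup 3, a mean of 26.1% ± 1.05, and 51.4% ± 3.89 of expected counts (SD, n = 2). The length limit of this measure was chosen after the values were seen.

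**Figure D3:**
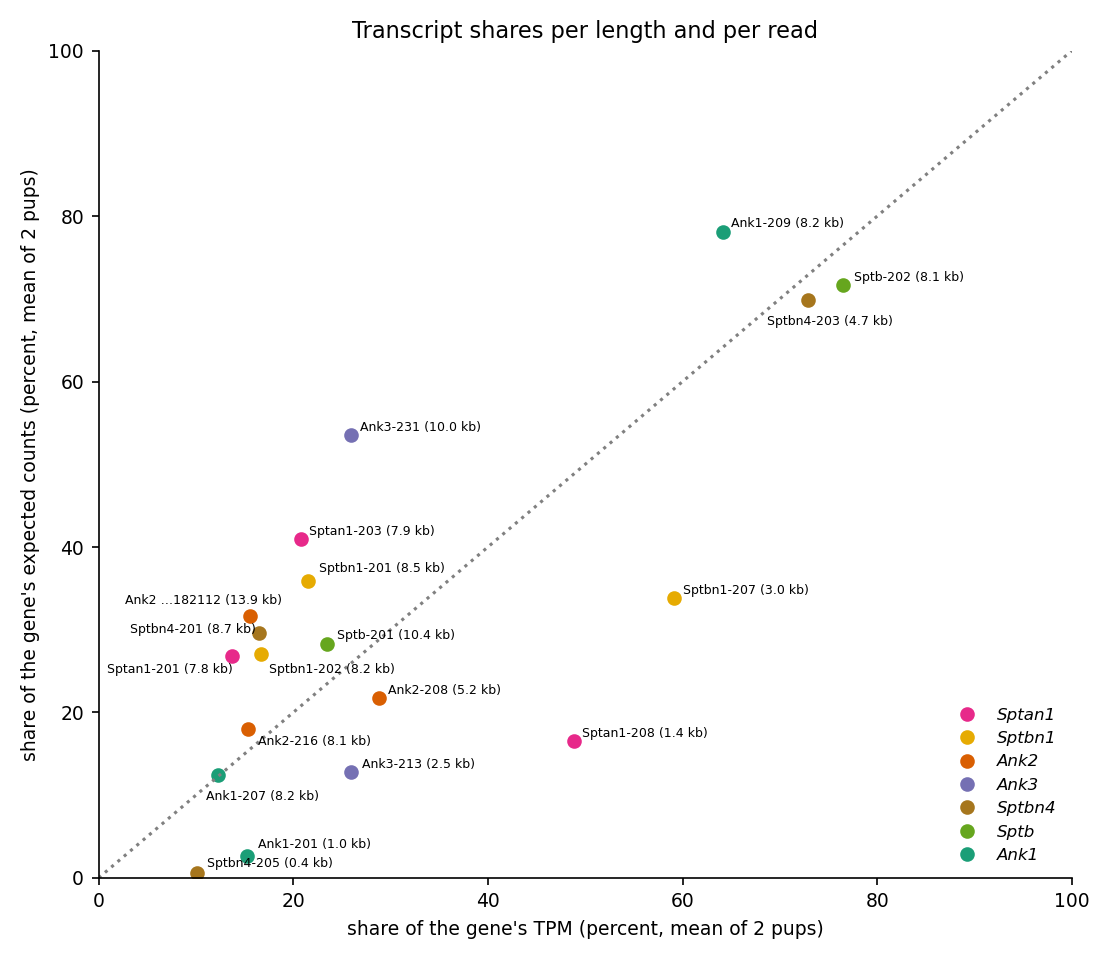
Share of a gene's TPM (horizontal) against its share of the gene's expected counts (vertical), in percent, mean of 2 pups, for each transcript with a mean TPM share of 10% or more, coloured by gene and labelled with its length in kb. Short transcripts such as Sptan1-208 and Sptbn1-207 lie below the dotted line of equal shares, and long ones such as Ank3-231 lie above it.

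Restricted to transcripts of 5000 nt or more, a limit also chosen after the values were seen, the 4 abundant genes had 52.7 TPM (Sptan1), 53.4 TPM (Sptbn1), 55.9 TPM (Ank2) and 18.9 TPM (Ank3) in pup 1. In pup 3 they had 43.3, 34.0, 21.6 and 9.61 TPM in the same order of genes. Long transcripts of Ank2 then exceeded those of Ank3 beyond the spread between pups (mean log2 ratio 1.36 ± 0.28), which the whole-gene levels did not (0.44 ± 0.29). This call rests on Ank2-208, listed at 5208 nt just above the limit, with 23.6 TPM in pup 1 and 8.55 TPM in pup 3: at 6000 nt or more the ratio was 0.60 ± 0.23 and did not pass. Both Ank2 sums include Ank2-216, whose length was not matched, with 12.96 TPM in pup 1 and 4.38 TPM in pup 3. Long transcripts of Sptbn4 were at 0.550 TPM in pup 1 and 0.330 TPM in pup 3, below those of Sptb at 2.61 and 1.88 TPM, the reverse of the order by whole gene. That reversal rests on Sptbn4-203, at 4724 nt just below the limit: at 4000 nt or more the mean log2 ratio of Sptbn4 over Sptb was 0.05 ± 0.05.

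The 7 genes were all higher in pup 1 than in pup 3, by unequal amounts, with larger ratios for the ankyrins than for the alpha chain. The difference describes 2 animals of 1 group, and each pup gave 1 library, so it has no replicate check. On TPM + 0.1, which understates the ratio of low genes, pup 1 over pup 3 was 2.35-fold for Ank2, 2.03-fold for Ank1, 1.77-fold for Ank3, 1.57-fold for Sptbn4, 1.46-fold for Sptbn1, 1.37-fold for Sptb and 1.08-fold for Sptan1. Among the 6 members with a mean of 1 TPM or more, 1 was past 2-fold, Ank2, beside 5.45% of all 14985 such genes that were 2-fold or more apart in either direction and 4.82% that were 2-fold or more higher in pup 1, and 3 were past 1.5-fold, beside 19.8%. All 6 were higher in pup 1, as were 80.4% of all genes. The deposited intervals, of unstated level, did not overlap in 5 of the 6, beside 53.6% of all genes; for Ank2 they ran from 73.8 to 79.8 TPM in pup 1 and from 31.3 to 35.8 TPM in pup 3, while those of Sptan1, 113 to 124 TPM in pup 1 and 105 to 115 TPM in pup 3, overlapped.

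A shift of all genes and transcript length moved with these ratios. The median of all genes was itself 1.204-fold higher in pup 1 (log2 0.27), and after TMM scaling of counts it was -0.03 on the log2 scale. On TMM-scaled counts the log2 ratios were 0.97 for Ank2, 0.57 for Ank3, 0.32 for Ank1, 0.28 for Sptbn1, 0.26 for Sptbn4, 0.17 for Sptb and -0.06 for Sptan1, so that no member passed 2-fold and Sptan1 changed sign. The ratio also moved with the deposited length of each gene, a transcript length averaged over both pups, 6879 nt for Ank2, and not its genomic span. The median log2 ratio was -0.01 in the shortest of 5 equal groups of genes by this length. It was 0.49 in the longest group, where all 6 members lie. Ank2, Ank3, Sptbn4 and Sptbn1, at 1.23, 0.82, 0.65 and 0.54, were above the median of the longest group, and Sptb and Sptan1, at 0.45 and 0.11, were below it. The part of length in the members' ratios was not tested.

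**Figure D4:**
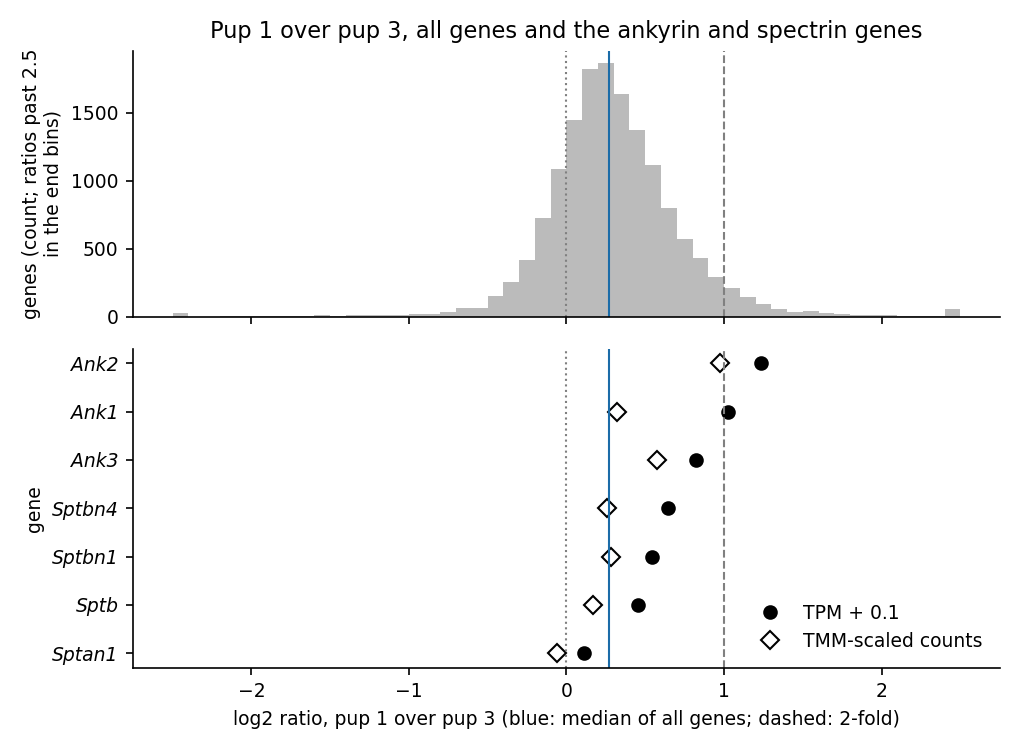
Log2 ratio of pup 1 over pup 3. The upper panel counts all 14985 genes with a mean of 1 TPM or more, on TPM + 0.1, with the 2 end bins holding ratios past the axis. The lower panel gives the 7 ankyrin and spectrin genes on TPM + 0.1 (filled) and on TMM-scaled counts (open). The blue line is the median of all genes on TPM + 0.1, log2 0.27, and the dashed line is 2-fold, which Ank2 passes on TPM + 0.1 and misses at log2 0.97 on scaled counts.

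The known partners of these proteins were present in newborn forebrain. Most were at higher levels than Sptbn4, which was itself at percentile 10.3 of the detected protein-coding genes. Of 56 partner genes in 5 lists, 54 had at least 1 TPM in both pups, beside 60.7% of all protein-coding genes. Of the 54 with a mean of 1 TPM or more, none was past 2-fold between pups, beside 5.45% of all such genes, and all 54 were higher in pup 1, beside 80.4%. The membrane proteins of initial segment and node had a median of 24.5 TPM, and 15 of 17 reached 1 TPM in both pups. Highest were the adhesion molecules contactin-1 (Cntn1), with 96.9 TPM in pup 1 and 69.6 TPM in pup 3, and Chl1, with 92.6 TPM in pup 1 and 68.6 TPM in pup 3. The 2 below the limit were the sodium channel subunit Scn4b, the lowest, with 0.520 TPM in pup 1 and 0.310 TPM in pup 3, and the paranodal protein Cntnap1, with 1.00 TPM in pup 1 and 0.290 TPM in pup 3, which was 2.82-fold higher in pup 1 on TPM + 0.1. The classical cargo of giant ankyrin-G was named after its values were seen: neurofascin (Nfasc) had 28.0 TPM in pup 1 and 17.4 TPM in pup 3, and the sodium channel gene Scn2a 37.2 TPM in pup 1 and 20.4 TPM in pup 3. Both were above Sptbn4 in each pup, whereas Scn4b, Cntnap1 and the potassium channel gene Kcnq3 of the same list were below it in each.

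The cytoplasmic partners of the initial segment, which bind microtubules and scaffold synapses there, had the highest median, 68.8 TPM, with 10 of 10 detected. Mapre1 (EB1), a microtubule plus-end protein, had 349 TPM in pup 1 and 288 TPM in pup 3, and Csnk2b, the regulatory subunit of casein kinase II, had 294 TPM in pup 1 and 281 TPM in pup 3. The scaffold Dlg4 (PSD-95) was the lowest with 11.1 TPM in pup 1 and 10.6 TPM in pup 3. The proteins of the spectrin-actin junction had a median of 29.4 TPM, with 14 of 14 detected. Tropomodulin-2 (Tmod2), the neuronal cap of actin filament pointed ends, had 345 TPM in pup 1 and 182 TPM in pup 3, and alpha-adducin (Add1), which caps barbed ends and recruits spectrin, had 143 TPM in pup 1 and 128 TPM in pup 3. Tmod1, the red-cell tropomodulin, was the lowest with 1.5 TPM in pup 1 and 1.43 TPM in pup 3.

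Ankyrin cargo, membrane and transport proteins bound by ankyrin-B or its relatives, had a median of 52.1 TPM, with 8 of 8 detected. The dynactin subunit Dctn1 had 131 TPM in pup 1 and 109 TPM in pup 3. The calcium channel Itpr1 was the lowest with 3.22 TPM in pup 1 and 2.52 TPM in pup 3. The median log2 ratio of pup 1 over pup 3 was 0.48 for the initial segment and node membrane list and 0.27 for its cytoplasmic partners, 0.36 for the spectrin-actin junction and 0.34 for ankyrin cargo, beside 0.59 for the 6 ankyrin and spectrin genes with a mean of 1 TPM or more and 0.27 for all genes.

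**Figure D5:**
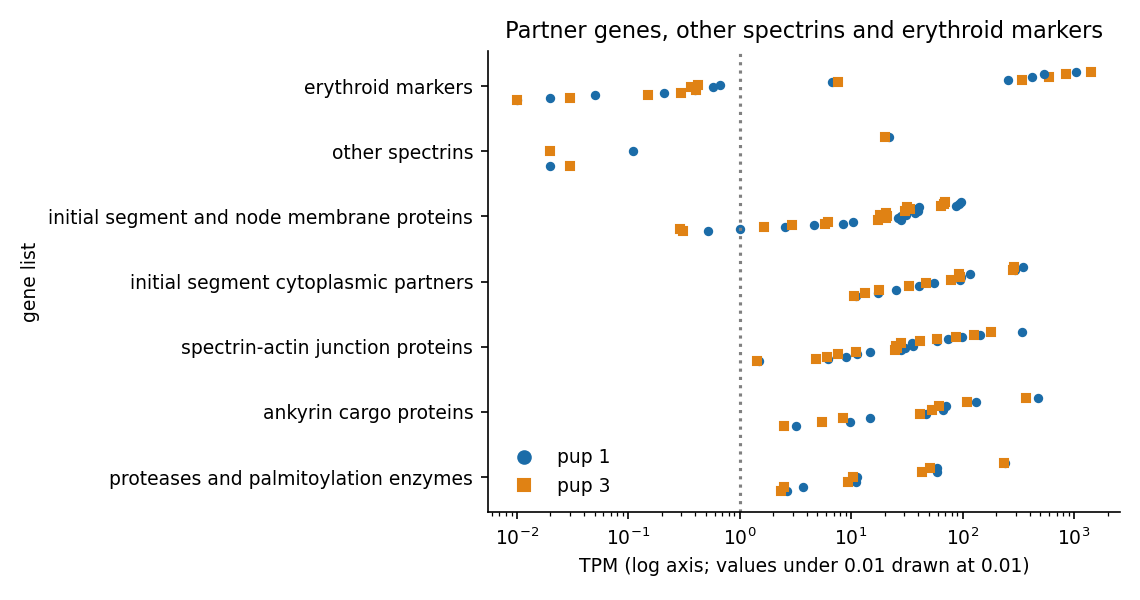
TPM of each gene in the partner lists, the other spectrins and the erythroid markers, on a log axis, with a circle for pup 1 and a square for pup 3. The dotted line marks 1 TPM. Nearly all partner genes lie above it, whereas the erythroid list splits into globins above 254 TPM and membrane genes such as Slc4a1 below 1 TPM, with Alas2, a heme synthesis gene, between them.

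The tissue label was checked with markers. All 6 neuron markers and all 6 forebrain markers had at least 1 TPM in both pups, beside 60.7% of all protein-coding genes. The neuronal tubulin Tubb3 was the highest with 1836 TPM in pup 1 and 1700 TPM in pup 3. Of the forebrain markers, Emx2, a cortical transcription factor, was past 2-fold with 9.76 TPM in pup 1 and 3.94 TPM in pup 3, while Neurod6, a gene of cortical excitatory neurons, had 206 TPM in pup 1 and 329 TPM in pup 3. The share of mitochondrial genes in TPM was 5.14% for pup 1 and 6.74% for pup 3. A check for 1 library deposited under both labels gave a chi-square of 52.3 per degree of freedom over 18969 genes, so the libraries were counted as 2.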

How the data were processed

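Total RNA libraries of 2 newborn forebrains, 1 group, were analysed. The deposited notes name mm10 and GENCODE M4 for quantification, and no aligner, quantifier or strand setting (not given in the sources used here). Deposited tables hold expected counts, TPM, a posterior mean TPM, interval bounds in TPM (treated as a signal) and the percent share of each transcript, all used as deposited; FPKM was not used here. Gene names, positions and structures came from GENCODE M21, matched without version. The members and lists were chosen with earlier results of these data known. Ratios used TPM + 0.1, and detection was 1 TPM in both pups. Scaling used expected counts rounded to whole numbers in edgeR 4.0.16 (TMM) and DESeq2 1.42.0 (size factors), with R 4.3.3, Python 3.11.15, numpy 2.4.6 and pandas 2.3.3. Named were all members, transcripts with a mean share of 10% or more, those with a giant exon, the other spectrins, and of each partner list the 2 highest, the lowest and any past 2-fold, some of which are not reported here; further genes named from the lists were chosen after their values were seen. Counts limit precision: with few reads, as for Ank1, shares are uncertain. Reads shared by overlapping genes cannot be separated without strand.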

Additional observations from a re-analysis of the deposited data

How the results depend on the processing

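Alternatives were posterior mean TPM, library-scaled counts not divided by length, other pseudocounts, thresholds and filters, count scaling, each pup alone, and, added after seeing the data, long transcripts only. By library-scaled counts the mean log2 ratio turned to -0.24 ± 0.24 for Sptan1 over Sptbn1 and -0.59 ± 0.06 for Sptbn4 over Sptb. It turned to -0.32 ± 0.24 for Sptan1 over the summed beta chains. With transcripts of 5000 nt or more, and of 6000 nt or more, Sptbn4 over Sptb was -2.13 ± 0.10. Without replicate 2 (pup 3), Sptan1 over Sptbn1 was -0.11 and Sptan1 over the beta chains -0.18; without replicate 1 (pup 1) they were 0.32 and 0.26. The log2 ratio of pup 1 over pup 3 for Sptan1 was -0.0587 on TMM-scaled counts and -0.0505 with DESeq2 size factors. Members past 2-fold between pups numbered 1, but 3 at 1.5-fold, 0 with TMM, 0 with DESeq2 size factors and 2 with no filter on level. The Ank3 share with the whole giant exon, 9.98%, was 17.8% of expected counts and 9.60% by posterior mean, and 9.82% to 10.1% in single pups. The Ank2 share in transcripts of 10000 nt or more, 26.1%, was 51.4% of counts and 24.9% by posterior mean, and 25.4% to 26.9% in single pups. Of recomputed gene pairs, 61 values kept their direction and side of the 3 SD criterion, and 6 turned round. Another 6 came to pass it in the same direction (Ank2 over Ank3 by counts and by long transcripts, Sptbn1 over Ank2 at 2 SD). Of the values that turned round, those of Sptbn4 over Sptb were past 3 SD in the other direction, and those of Sptan1 were not. Ratios that were both neighbours in the order and fixed pairs, such as Ank2 over Ank3, were counted under each, so these are not all distinct results. Of recomputed ratios between pups, 20 kept their direction and side of 2-fold, 2 turned round, and 6 fell below it: Ank2 at log2 0.97 and 0.98 by the count scalings, and Ank1 at 0.32 to 0.74 by those, a pseudocount of 1 and the posterior mean. In single pups, which have no criterion, 18 pair ratios kept their direction and 2 did not. By construction, counts weight transcripts by length; other causes were not tested. The Ank2 giant-exon share was not computed because the annotated and deposited lengths differ. No paired analysis was possible because both libraries belong to 1 group. Depth limits Ank1, Sptb and Sptbn4, and the number of pups limits every ratio.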

Other observations

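Enzymes that cut or anchor ankyrins and spectrins were also present. All 7 genes of the list had at least 1 TPM in both pups, beside 60.7% of all protein-coding genes. Their median was 10.9 TPM, below that of all detected protein-coding genes, 17.0 TPM. The calpain small subunit Capns1 had 58.5 TPM in pup 1 and 51.5 TPM in pup 3. The large subunit of calpain-1, Capn1, was the lowest with 2.65 TPM in pup 1 and 2.37 TPM in pup 3. The large subunit of calpain-2, Capn2, had 58.6 TPM in pup 1 and 43.4 TPM in pup 3, above Capn1 in both pups, and was named after its values were seen. The palmitoyltransferases Zdhhc5 and Zdhhc8, which anchor ankyrin-G in the membrane, had 11.3 and 11.1 TPM in pup 1 and 10.5 and 9.32 TPM in pup 3, again named after their values were seen. The list's median log2 ratio of pup 1 over pup 3 was 0.18, below the 0.27 of all genes.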
